A study of Mus musculus with 4 samples.

Results

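What a CD40 ligand virus adds on top of interferon beta was examined in myeloid cells sorted from mouse melanomas, by setting 1 single-cell library, Ad-COMBO, against another, Ad-mIFNB. Barcodes of these libraries were compared if 500 genes or more were detected in them and mitochondrial genes took no more than 10% of their UMIs (unique molecular identifiers, each a counted transcript). This kept 671 of 954 barcodes in Ad-COMBO and 1810 of 2076 in Ad-mIFNB, or 2481 of the 26882 cells that passed the same filter in the 4 libraries of the series. The tumors were grown from B16-F10 cells, a mouse melanoma line, under the skin of C57BL/6 mice, and an adenovirus was injected into the tumor on day 12. Ad-mIFNB tumors received the virus for mouse interferon beta, and Ad-COMBO tumors received it together with the virus ISF35, which encodes a CD40 ligand. The other libraries came from tumors given ISF35 alone (Ad-MEM40) or an empty virus (Ad-Null). All 4 libraries hold CD11c+ MHC-II+ cells pooled from 3 tumors, with dendritic cell (DC) as the labelled cell type. Each virus has 1 library, so there is no replicate error, no test and no p-value below, and a difference between viruses cannot be told apart from one between tumors, mice or library preparations.

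CD40 is a receptor of the TNF receptor family on dendritic cells, macrophages and B cells, and its ligand is normally shown by activated helper T cells. Engaged CD40 binds TRAF adaptors, which release the NF-kB transcription factors from their inhibitors, and dendritic cells then raise costimulatory ligands, cytokines of the IL-12 family and survival genes, a step often called licensing. Interferon beta acts through another receptor, and genes it induces often carry the interferon-stimulated response element (ISRE), whereas many genes induced by interferon gamma carry the gamma-activated site (GAS).

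Promoter windows of 5 genes that the results below turn on are shown to set the 3 kinds of element beside the data, and the capitals mark each match. The windows run from 250 bases before to 50 bases after the RefSeq gene start in GRCm38.p6 and are written 5′ to 3′ on the gene's strand. Nfkbia and Tnfaip3 encode the NF-kB inhibitors IkB-alpha and A20, Cxcl1 a neutrophil chemokine, Gbp5 an interferon-inducible GTPase and Ifit3 an antiviral protein.
Nfkbia (chr12:55492598-55492897, minus strand, NF-kB consensus): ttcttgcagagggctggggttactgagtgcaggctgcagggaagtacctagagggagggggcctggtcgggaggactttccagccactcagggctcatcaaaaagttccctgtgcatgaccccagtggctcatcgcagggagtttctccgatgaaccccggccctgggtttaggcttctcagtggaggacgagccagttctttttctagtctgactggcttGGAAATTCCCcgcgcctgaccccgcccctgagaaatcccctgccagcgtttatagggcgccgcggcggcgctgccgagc
Tnfaip3 (chr10:19015361-19015660, minus strand, NF-kB consensus): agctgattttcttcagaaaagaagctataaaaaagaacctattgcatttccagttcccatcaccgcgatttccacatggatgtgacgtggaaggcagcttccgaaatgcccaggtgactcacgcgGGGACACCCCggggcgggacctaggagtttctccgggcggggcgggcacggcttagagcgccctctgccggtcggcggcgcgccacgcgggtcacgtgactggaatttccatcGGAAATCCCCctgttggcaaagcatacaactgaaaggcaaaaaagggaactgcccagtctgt
Cxcl1 (chr5:90890995-90891294, plus strand, NF-kB consensus): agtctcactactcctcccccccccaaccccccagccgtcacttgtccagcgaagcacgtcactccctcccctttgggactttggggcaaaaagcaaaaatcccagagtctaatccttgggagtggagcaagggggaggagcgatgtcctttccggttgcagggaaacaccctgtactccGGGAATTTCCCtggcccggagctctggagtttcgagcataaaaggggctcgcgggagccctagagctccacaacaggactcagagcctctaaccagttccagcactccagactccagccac
Gbp5 (chr3:142496684-142496983, plus strand, NF-kB consensus and GAS): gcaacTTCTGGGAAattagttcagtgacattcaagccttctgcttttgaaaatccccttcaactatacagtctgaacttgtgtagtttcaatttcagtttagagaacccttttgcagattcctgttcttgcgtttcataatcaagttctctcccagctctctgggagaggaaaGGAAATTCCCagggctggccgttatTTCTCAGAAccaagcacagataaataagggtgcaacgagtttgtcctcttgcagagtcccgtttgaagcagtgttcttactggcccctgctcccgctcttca
Ifit3 (chr19:34583279-34583578, plus strand, ISRE): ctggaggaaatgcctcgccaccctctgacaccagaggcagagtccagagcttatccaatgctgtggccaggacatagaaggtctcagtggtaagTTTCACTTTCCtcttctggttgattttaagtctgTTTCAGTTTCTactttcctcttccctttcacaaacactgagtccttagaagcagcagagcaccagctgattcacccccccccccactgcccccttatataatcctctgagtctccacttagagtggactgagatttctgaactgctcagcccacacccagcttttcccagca
The NF-kB consensus lay 29 bases before the start of Nfkbia, at 125 and 12 bases before that of Tnfaip3, and at 71 and 70 bases before that of Cxcl1, where overlapping matches lay on opposite strands. Gbp5 held it 77 bases before its start, beside GAS matches at 245 and 52, and Ifit3 held the ISRE at 156 and 122. Another RefSeq window of Tnfaip3, chr10:19011914-19012213, held none of the 3 elements and is not printed. Matches of different elements did not overlap in the 5 windows printed. The search, on both strands, used the NF-kB consensus, the ISRE by its name (a pair of GAAA repeats 2 bases apart) and the GAS as TTCNNNGAA. Among all 32851 windows, 4.51% held the NF-kB consensus, 2.52% the ISRE and 8.30% the GAS. The NF-kB consensus was in 14 of 27 windows (51.9%) of a list of CD40 and NF-kB pathway genes, the ISRE in 19 of 36 (52.8%) of a type I interferon list and the GAS in 9 of 18 (50.0%) of an interferon gamma list. Of the genes highest in Ad-COMBO by the rule used below, 7 of 38 windows (18.4%) held the NF-kB consensus, those of Cxcl1, Tnfrsf9, Tmem39a, Tnfaip3, Nfkbia, Ier3 and H2-M2, and of the genes lowest in Ad-COMBO 1 of 27 (3.70%) did, that of Ltb. The GAS went the other way, in 1 of 38 windows (2.63%) of the highest genes and 5 of 27 (18.5%) of the lowest. The ISRE was in 3 (7.89%) of the highest and none of the lowest. A list of DC maturation genes, with the most calls below, held the NF-kB consensus in 1 of 22 windows (4.55%). A list of MHC class I genes, with no call over all kept cells, held it in 9 of 21 (42.9%). Windows of Procr, Acod1, Sema7a, Ccl8, Il15ra and Dll4 held none of the 3 elements. A match describes letters and is neither a binding site nor a cause of a difference.

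The sorted cells were checked against marker lists. Over all kept cells, the summed level of 12 cDC1 markers was 3553 CPM (counts per 1000000 UMIs of the summed cells) in Ad-COMBO and 2593 in Ad-mIFNB, and that of 12 macrophage markers 3930.3 and 3159.7, so macrophage genes were present beside dendritic cell genes. Melanoma markers were present at 401 and 598 CPM. T or NK cell markers summed to 20.9 and 29.5 CPM, neutrophil markers to 12.4 and 10.8, and B cell markers to 7.88 CPM in Ad-mIFNB. Kept cells had a median of 11434 UMIs in Ad-COMBO and 13615.5 in Ad-mIFNB, with 9748429 and 28541575 UMIs in all. No kept barcode was shared between these libraries, and Ad-COMBO shared 8 with Ad-MEM40.

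The genes carried by the viruses checked the labels only in part. Ifnb1 (interferon beta) had 28 UMIs in 8 Ad-COMBO cells, or 2.87 CPM (1.91 to 4.15), of which 17 UMIs lay in 1 cell, and 90 UMIs in 16 Ad-mIFNB cells, or 3.15 CPM (2.54 to 3.88). Bracketed values are 95% intervals for counting error alone. Ad-Null had 0.628 CPM of Ifnb1 and Ad-MEM40 1.01. Cd40lg (CD40 ligand) had no UMI in kept cells of either library, which allows up to 0.308 CPM in Ad-COMBO and 0.105 CPM in Ad-mIFNB by the limit of 3 UMIs. Ad-MEM40, given ISF35 alone, had 91 Cd40lg UMIs in 28 kept cells, or 0.5004 CPM (0.403 to 0.614), of which 27 lay in 1 cell, and Ad-Null had 1 UMI. The transcript of the ISF35 ligand was thus counted in kept cells of Ad-MEM40 and not of Ad-COMBO, whose barcodes that failed the filter held 1 UMI. Cells with Cd40lg were 0.179% of those kept in Ad-MEM40, and Ad-COMBO had 671 kept cells. At so low a share, a count of 0 in Ad-COMBO cannot decide its label. The transcript does not bear out the ISF35 label of Ad-COMBO, and every direction below rests on Ad-COMBO being the library so labelled. Cd40, the receptor (chromosome 2, 165055627 to 165072948), was at 150.3 CPM (143 to 158) in Ad-COMBO and 97.9 CPM (94.3 to 102) in Ad-mIFNB, a log2 ratio of 0.59, and at 53.8 and 76.2 CPM in Ad-Null and Ad-MEM40.

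Cells of 2 dendritic cell gates made up a larger share of Ad-COMBO than of Ad-mIFNB, and the share of macrophage-like cells was about level. A gate took barcodes with at least 1 UMI of each of its genes. Xcr1+ Clec9a+ cells, the gate of the cross-presenting cDC1, were 129 of 671 kept cells in Ad-COMBO, 19.2% (16.3 to 22.4), and 247 of 1810 in Ad-mIFNB, 13.6% (12.1 to 15.3). Ccr7+ Fscn1+ cells, the gate of mature dendritic cells that migrate to lymph nodes, were 126 cells, 18.8% (15.9 to 21.9), and 223 cells, 12.3% (10.8 to 13.9). C1qa+ C1qb+ C1qc+ cells, which carry the complement genes of macrophages, were 114 cells, 17.0% (14.2 to 20.0), and 317 cells, 17.5% (15.8 to 19.3). The intervals of the dendritic cell gates did not overlap between the libraries, and those of the C1q gate did. The rest, 329 (49.0%) and 1093 cells (60.4%), were in no gate.

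A gate on detected UMIs depends on depth, so the shares were also taken after thinning each cell to 1000 UMIs. Ccr7+ Fscn1+ cells were then 9.32% (7.22 to 11.8) against 4.88% (3.92 to 5.98), and Xcr1+ Clec9a+ cells 1.95% (1.04 to 3.32) against 0.953% (0.556 to 1.52), whose intervals overlap. In Ad-Null and Ad-MEM40, Xcr1+ Clec9a+ cells were 14.8% and 11.4%, Ccr7+ Fscn1+ cells 8.48% and 10.4%, and C1q cells 30.1% and 40.1%, which the plot of gate shares sets beside the interferon beta libraries. More than 1 gate held 25 Ad-COMBO cells and 64 Ad-mIFNB cells, of which 10 and 45 were in both the Ccr7 and the C1q gate.

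**Figure D1:**
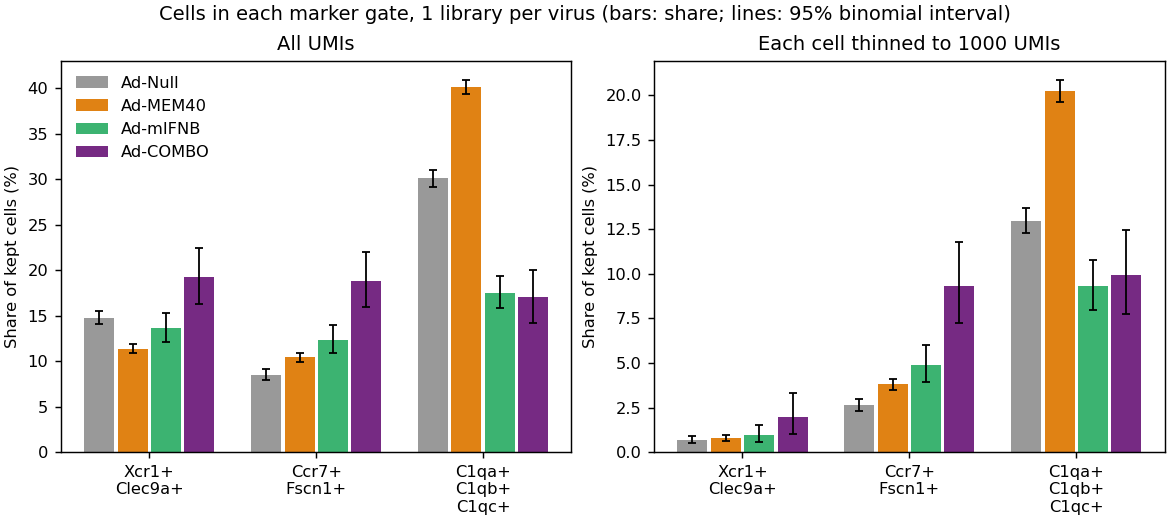
Share of kept cells (%, vertical axis) in each marker gate for the 4 libraries, with all UMIs (left) and with each cell thinned to 1000 UMIs (right); bars are shares and lines 95% binomial intervals. Ad-COMBO has the highest share in the Xcr1+ Clec9a+ gate (19.2%) and the Ccr7+ Fscn1+ gate (18.8%), and Ad-MEM40 has the highest share in the C1q gate (40.1%).

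Summed over all kept cells, 16 of 22 DC maturation genes and 9 of 21 in the interferon gamma associated list were higher in Ad-COMBO, and 7 of 11 cDC2 markers were lower. Log2 ratios are Ad-COMBO over Ad-mIFNB with 5 CPM added to both. A gene was described with at least 50 UMIs over both libraries and a mean of at least 10 CPM, and called at 1.5-fold. Genes named first are the 15 highest and 15 lowest with a mean of at least 25 CPM (10 of each in a gated class), and a bracketed value with no unit is the log2 ratio. This ranking left out mitochondrial, ribosomal protein, haemoglobin, immunoglobulin, T cell receptor, Xist, Y-linked, Gm and Rik genes and the gate genes. Positions are those of GRCm38. Of 7495 genes described, 260 (3.47%) were at least 1.5-fold higher and 64 (0.854%) at least 1.5-fold lower in Ad-COMBO, with a median log2 ratio of -0.01. In these sums, fewer cells of a type and less RNA per cell cannot be told apart. Weighting the gated and ungated cells of Ad-COMBO to the shares of Ad-mIFNB left 201 higher and 39 lower, of which 180 and 35 were among those above.

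The highest ratio of the genes ranked belonged to Procr, the endothelial protein C receptor, known on endothelium and blood stem cells (chromosome 2, 155751117 to 155755471). It was at 52.6 CPM (48.2 to 57.4) in Ad-COMBO and 8.34 CPM (7.31 to 9.47) in Ad-mIFNB, a log2 ratio of 2.11, and at 9.12 CPM in Ad-Null and 24.7 in Ad-MEM40. Acod1, which makes the antimicrobial metabolite itaconate (chromosome 14, 103046977 to 103056573), was at 56.1 CPM (51.5 to 61.02) in Ad-COMBO and 9.18 CPM (8.10 to 10.4) in Ad-mIFNB (2.11). Acod1 was at 13.4 CPM in Ad-Null and at 49.6 in Ad-MEM40, so both libraries with ISF35 were above both without it. Sema7a, a membrane semaphorin (chromosome 9, 57940112 to 57962865), was at 74.1 CPM (68.8 to 79.7) in Ad-COMBO and 18.2 CPM (16.7 to 19.9) in Ad-mIFNB (1.77). Ad-COMBO was the only library above 20 CPM of Sema7a, the others lying at 11.1 (Ad-Null), 17.0 (Ad-MEM40) and 18.2 CPM. Cxcl1 (chromosome 5, 90891241 to 90893115), whose promoter is printed above, was at 108 CPM (102 to 115) in Ad-COMBO and 30.5 CPM (28.5 to 32.6) in Ad-mIFNB (1.67), and Ccl8, which attracts monocytes and lymphocytes (chromosome 11, 82115185 to 82116799), at 322 CPM (311 to 333) in Ad-COMBO and 104 CPM (100.5 to 108) in Ad-mIFNB (1.58).

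Among the others of the 15 highest, Il15ra, which presents IL-15 to T and NK cells, was at 44.0 against 13.5 CPM (1.41), and Ly75, the endocytic receptor DEC-205 of cross-presenting cells, at 78.6 against 27.6 CPM (1.36). Tnfrsf9 (4-1BB) was at 43.5 against 14.5 CPM (1.31) and Tnfrsf4 (OX40) at 37.2 against 13.5 CPM (1.19), both costimulatory receptors best known on T cells. Serpinb9, an inhibitor of granzyme B, was at 140.1 against 54.8 CPM (1.28). Dnase1l3, a nuclease that digests DNA outside cells, was at 68.5 against 26.4 CPM (1.23), and Cacnb3, a calcium channel subunit of mature dendritic cells, at 98.2 against 39.7 CPM (1.21). Ms4a8a, Tmem39a and the collagenase gene Mmp13 had log2 ratios of 1.29, 1.27 and 1.21, with 38.7% of the Ad-COMBO UMIs of Mmp13 in 1 cell.

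On the lower side, Cd209a, a C-type lectin (DC-SIGN family) found on cDC2 (chromosome 8, 3743397 to 3748984), was at 14.3 CPM (12.0 to 16.8) in Ad-COMBO and 57.5 CPM (54.7 to 60.3) in Ad-mIFNB, a log2 ratio of -1.70. Ccr2, needed by monocytes to enter tissue (chromosome 9, 124101950 to 124113557), was at 68.5 CPM (63.4 to 73.9) in Ad-COMBO and 180.5 CPM (176 to 185) in Ad-mIFNB (-1.33), with UMIs in 147 of 671 and 886 of 1810 cells. The calcium-binding genes S100a4 and S100a6 were at 636 against 1341 CPM (-1.07) and 1077 against 2075 CPM (-0.94). The C-type lectins Mgl2 and Clec10a were at 84.3 against 174 CPM and 58.1 against 109 CPM, Klrd1 (CD94) at a log2 ratio of -0.88 and Cd7 at a log2 ratio of -0.76. Log2 ratios were -1.07 for Cd300e, a monocyte receptor, -1.16 for the fumarase gene Fh1, -0.95 for Bex6, -0.88 for the lipase Lipg and -0.77 for Lta4h, which makes leukotriene B4. The melanin genes Dct (-1.26) and Tyrp1 (-0.91) were lower too, with 82.4% and 85.6% of their Ad-COMBO UMIs in 1 cell, and without the top cell of each library they had log2 ratios of -3.04 and -2.71. With the weights of the Ad-mIFNB shares, Klrd1 (-0.52), Clec10a (-0.58), Cd7 (-0.46) and Tyrp1 (-0.51) were no longer 1.5-fold lower. With the mean of per-cell CPM, Tyrp1 (-0.44) was also below the threshold and Ms4a8a had a log2 ratio of 0.60.

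**Figure D2:**
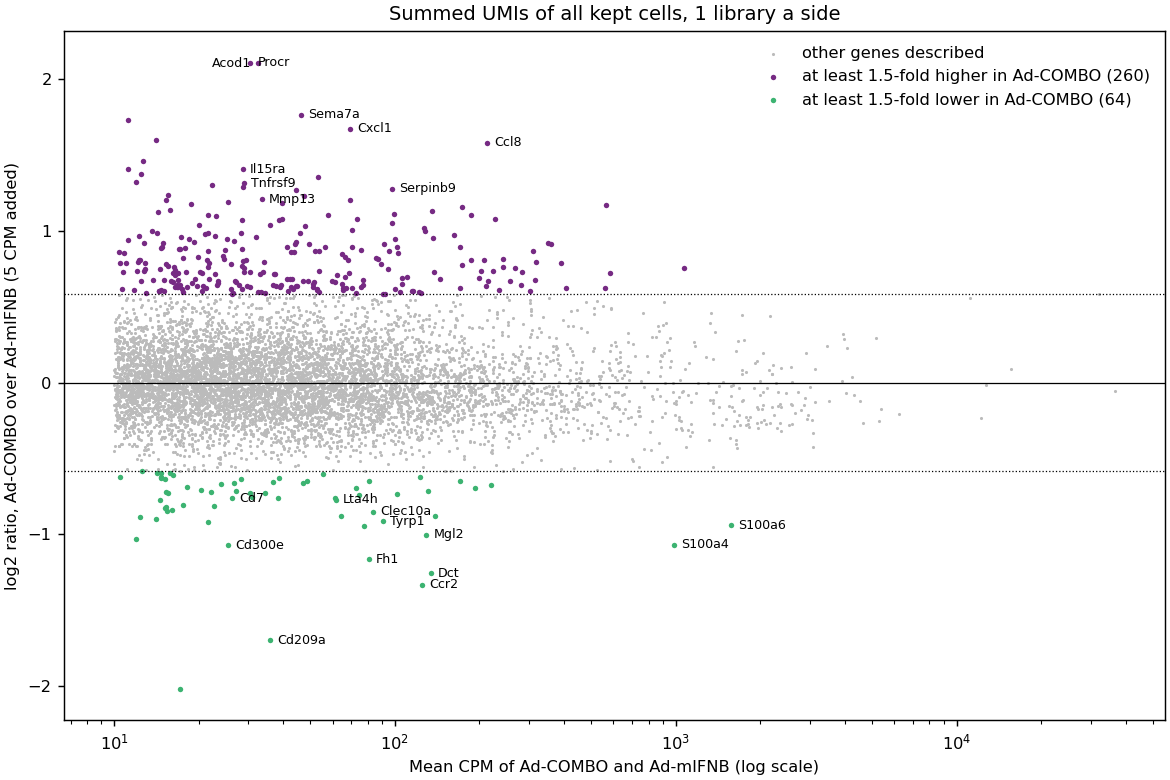
Each point is 1 of 7495 genes, with its mean CPM over Ad-COMBO and Ad-mIFNB (horizontal, log scale) and its log2 ratio, Ad-COMBO over Ad-mIFNB with 5 CPM added (vertical), in the summed UMIs of all kept cells; dotted lines mark 1.5-fold. Purple points are 260 genes at least 1.5-fold higher and green points 64 genes at least 1.5-fold lower, and Procr and Acod1 have the highest ratios of the genes labelled.

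Within the CD40 pathway, the inhibitors Tnfaip3 and Nfkbia were higher, and most other members were not called. Of 24 pathway genes, all described, 5 were at least 1.5-fold higher and none was lower (median log2 ratio 0.37, against -0.01 for all genes). Tnfaip3 was at 309 CPM (298 to 321) in Ad-COMBO and 144 CPM (139.6 to 148) in Ad-mIFNB (1.08) and Nfkbia at 1345 CPM (1322 to 1368) in Ad-COMBO and 795 CPM (785 to 806) in Ad-mIFNB (0.75), the inhibitors whose promoters are printed above. The ubiquitin ligases Birc2 and Birc3, which restrain noncanonical NF-kB, had log2 ratios of 0.68 and 0.65, and Cd40 itself at a log2 ratio of 0.59. The adaptor Traf1 was at 494 against 355 CPM (0.47), and the subunits Relb, Rel and Nfkb1 at log2 ratios of 0.38, 0.25 and -0.02. Among 15 survival and adhesion targets of NF-kB, 6 were higher and none lower (median 0.41), with the adhesion molecule Icam1 at 172 against 82.4 CPM (1.02), the prostaglandin synthase Ptgs2 at a log2 ratio of 0.89 and the caspase-8 inhibitor Cflar at a log2 ratio of 0.73. Cd40 and the survival factor Bcl2l1 (0.59) lay at the threshold and were below it under the weighting by gate shares (log2 ratios of 0.50 and 0.55), as was Birc2 (0.58).

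Of 10 costimulatory genes described (of 15), 4 were higher and none lower (median 0.56), among them Cd70, the ligand of CD27, at 23.7 CPM (20.7 to 27.0) in Ad-COMBO and 4.48 CPM (3.74 to 5.33) in Ad-mIFNB (1.60), and Cd80 at 84.6 against 44.7 CPM (0.85), while Cd86 had a log2 ratio of 0.56. DC maturation and migration genes were the list with the most calls, 16 of 22 higher and none lower (median 0.70). Fscn1, the actin bundler fascin, was at 257 against 117 CPM (1.11), Ccl22 at a log2 ratio of 1.13, Stat4 at a log2 ratio of 1.05 and Ccr7 at a log2 ratio of 0.79. The list median was 0.53 at the gate shares of Ad-mIFNB, and the mature DC markers that share genes with it were at 0.76 (8 of 10 higher). Of 17 cytokine genes 7 were higher and none lower (median 0.40): Il15ra, Il2ra (1.08), the IL-12 subunit Il12b (217 against 108 CPM, 0.98), Il27 (0.95) with its partner Ebi3 (0.81), Il15 (0.79) and Tnf (307 against 179 CPM, 0.76). Of 15 inhibitory molecules 5 were higher and none lower (median 0.34), with Cd200 at a log2 ratio of 1.08, Cd274 (PD-L1) at 404 against 219 CPM (0.87), Il10 at a log2 ratio of 0.97, Il1rn at a log2 ratio of 0.70 and Pdcd1lg2 (PD-L2) at a log2 ratio of 0.67. Of 17 chemokines 5 were higher and none lower (median 0.28), and Ccl12 (0.81) was below the threshold without its top cells (0.53). Of 10 chemokine receptors Cx3cr1 (1.10), Xcr1, Ccr7 and Cxcr3 (0.67) were higher and Ccr2 was lower, and Cx3cr1 had a log2 ratio of 0.44 without its top cells. At the gate shares of Ad-mIFNB, Ccr7 (0.55) and Cxcr3 (0.30) were not called.

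Of 38 type I interferon genes, 1 was higher, Oasl1 (0.62), and none was lower (median 0.06). Isg15 was at 2455 against 2294 CPM, and Ifit3, shown above with its ISRE, at 497 against 645 CPM (-0.37). The interferon gamma associated list held 9 higher and no lower genes of 21 described (median 0.57). These were Acod1, the GTPases Gbp4 (124 against 65.8 CPM, 0.87), Gbp5 (134 against 71.9 CPM, 0.85), Gbp2b (0.81), Gbp6 (0.66), Gbp8 (0.64), Iigp1 (0.69) and Tgtp1 (0.67), and the transcription factor Irf1 (389.8 against 242 CPM, 0.68). With cells of at least 1000 genes and at most 5% mitochondrial UMIs Oasl1 (0.56) was not called, nor was Gbp2b (0.26) by the mean of per-cell CPM. Gbp and Tgtp genes have near copies, so reads may be split among them. No gene of the MHC class I (22), MHC class II (13) or cell cycle (20) lists was called, with medians of 0.20, -0.21 and -0.09. Of 18 dissociation and heat stress genes 2 were higher, the immediate early gene Egr1 (781 against 344 CPM, 1.17) and Hspa1b (0.81), and all 18 had ratios above 0 (median 0.17). Ndrg1 (0.69) was the 1 of 15 hypoxia and glycolysis genes called higher (median -0.17), and Msr1, Mertk and Ctsl were the 3 of 20 phagocytosis and lysosome genes (median 0.19). Fn1, Clec10a and Mgl2 were the 3 of 9 alternative activation genes called lower (median -0.18).

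**Figure D3:**
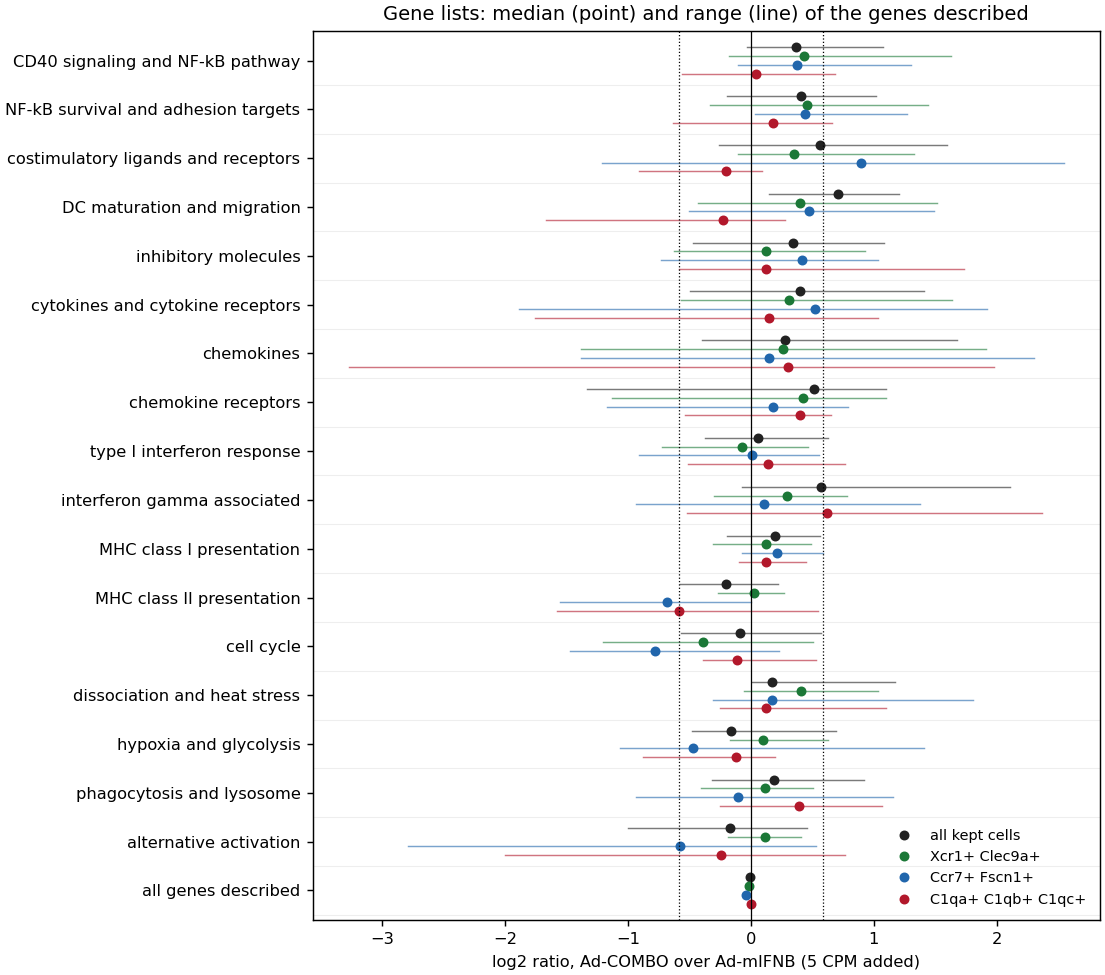
Median (point) and range (line) of the log2 ratio, Ad-COMBO over Ad-mIFNB with 5 CPM added (horizontal axis), over the described genes of 17 lists (rows) in all kept cells and in the 3 gated classes; dotted lines mark 1.5-fold and the last row gives medians over all genes described. The largest positive median is that of costimulatory genes in Ccr7+ Fscn1+ cells (0.90), and the lowest are those of the cell cycle (-0.78) and MHC class II (-0.68) lists in the same cells.

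Cell type markers differed beside these lists, and apart from the weighting by gate shares their part was not tested. Of 12 cDC1 markers 6 were higher (median 0.56), of 11 cDC2 markers 7 were lower (median -0.76, summed level 1485 against 2623 CPM), and of 9 monocyte markers 2 were lower (median -0.38, 2766 against 3699 CPM). Of 12 macrophage markers 2 were higher, Apoe (0.72) and Mertk (0.72) (median 0.30), of 10 pDC markers 3 were higher (median 0.36) and of 8 melanoma markers 3 were lower (median -0.37).

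In Xcr1+ Clec9a+ cells, the NF-kB inhibitors Tnfaip3 and Nfkbia and the IL-12 subunit Il12b were higher in Ad-COMBO, and S100a4 and 7 of 20 cell cycle genes were lower. Of 7107 genes described, 212 (2.98%) were higher and 176 (2.48%) lower. Tnfaip3 was at 223 CPM (207 to 240.0) in Ad-COMBO and 68.6 CPM (62.0 to 75.7) in Ad-mIFNB (1.63), with UMIs in 98 of 129 and 112 of 247 cells. Nfkbia was at 949 CPM (916 to 984) in Ad-COMBO and 339.7 CPM (325 to 355) in Ad-mIFNB (1.47), and its levels in Ad-Null and Ad-MEM40 were 491 and 813 CPM. Ier3, an early response gene and NF-kB target, was at 244 against 87.0 CPM (1.44). Il12b was at 169 CPM (155 to 184) in Ad-COMBO and 51.0 CPM (45.4 to 57.2) in Ad-mIFNB (1.64), carried by 18 cells in each library, with 36.2% and 58.4% of the UMIs in the top cell. The granzyme and cathepsin inhibitors Serpinb9 and Serpinb6b had log2 ratios of 1.62 and 1.52, Phlda1 at a log2 ratio of 1.41 and Fndc7 at 59.2 against 13.1 CPM (1.83). Ccl8 (1.91) and the macrophage gene Ms4a7 (1.39) had 80.1% and 67.1% of their Ad-COMBO UMIs in 1 cell and had log2 ratios of 0.07 and 0.10 without the top cells.

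Of the 24 CD40 and NF-kB pathway genes, 7 were higher in Xcr1+ Clec9a+ cells and none lower (median 0.43), the others being Traf1 (332 against 189.6 CPM, 0.79), Nfkbiz (0.76), Birc3 (0.71), Nfkbib (0.62) and Relb (0.59). Cd80 was at 43.3 against 14.3 CPM (1.32) and Cd86 at a log2 ratio of 0.36, 2 of 7 costimulatory genes being higher. Of 19 maturation genes 8 were higher (median 0.40), including Ccr7 (228 against 104 CPM, 1.10) and Fscn1 (1.16), and Fscn1 had a log2 ratio of 0.55 without the called doublets. Cxcl10, a ligand of CXCR3 on T cells, was at 469.9 against 196 CPM (1.24) and Cd274 at a log2 ratio of 0.82. Stress genes were higher alongside, 6 of 18 and none lower (median 0.41), with Egr1 at a log2 ratio of 1.03, Hspa1a at a log2 ratio of 0.79 and Dusp1 at a log2 ratio of 0.67. The Ccr7+ Fscn1+ gate shared 9 Ad-COMBO and 11 Ad-mIFNB cells with this one, and their part in Ccr7, Fscn1 and Il12b is not given here. Without cells in more than 1 gate, 159 of the 212 higher genes of this class were still described and called. Relb (0.52) and Hspa1a (0.48) were among those not called, and Serpinb9 had a log2 ratio of 0.95. Immediate early genes are also raised by tissue digestion, and the part of handling in the NF-kB genes was not tested.

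The lowest genes of Xcr1+ Clec9a+ cells were led by S100a4, at 51.6 CPM (43.9 to 60.2) in Ad-COMBO and 233 CPM (221 to 246) in Ad-mIFNB (-2.07), with S100a6 at a log2 ratio of -1.31 and S100a10 at a log2 ratio of -1.25. Ccr2 was at 64.3 against 147 CPM (-1.13), Gpr183, an oxysterol receptor that guides dendritic cells, at 16.2 against 49.8 CPM (-1.37), the transcription factor Mef2c at 26.1 against 74.3 CPM (-1.35) and the chemokine Ccl12 at a log2 ratio of -1.39. Replication genes were among them, with Rrm2, a subunit of ribonucleotide reductase, at 19.1 against 50.7 CPM (-1.21), the PCNA-binding gene Pclaf at a log2 ratio of -1.22 and the helicase subunit Mcm6 at a log2 ratio of -1.10. Of 20 cell cycle genes 7 were lower and none higher (median -0.39). Of 38 type I interferon genes Ifit3 (137 against 230.1 CPM, -0.73), Ifit1 (-0.68), Ifit3b (-0.65) and Slfn8 (-0.64) were lower (median -0.08), and none of the 4 was called without cells in more than 1 gate (-0.49, -0.44, -0.23 and -0.37). Within this gate 3 of 9 cDC2 markers and 3 of 5 monocyte markers were lower, and summed macrophage markers were at 1301 against 937 CPM, whose part was not tested.

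In Ccr7+ Fscn1+ cells, 8 of 13 costimulatory genes and both IL-27 subunits were higher in Ad-COMBO, and 10 of 13 MHC class II genes were lower. Of 7253 genes described, 454 (6.26%) were higher and 517 (7.13%) lower, in 126 and 223 cells. The classes have unlike numbers of cells, so these shares do not rank them. Procr was at 189 CPM (169 to 210.3) in Ad-COMBO and 20.2 CPM (16.01 to 25.2) in Ad-mIFNB (2.94), with UMIs in 52 and 45 cells. Dll4, a Notch ligand through which dendritic cells instruct T cells (chromosome 2, 119325784 to 119335962), was at 53.7 CPM (43.5 to 65.6) in Ad-COMBO and 4.10 CPM (2.34 to 6.65) in Ad-mIFNB (2.69), in 17 and 5 cells. Dll4 was at 0.906 CPM in Ad-Null and 13.4 in Ad-MEM40, so the libraries with ISF35 were the higher ones with and without interferon beta. Sema7a was at 314 CPM (288 to 341) in Ad-COMBO and 76.6 CPM (68.1 to 85.7) in Ad-mIFNB (1.97) and Cxcl1 at 188 CPM (169 to 209.7) in Ad-COMBO and 34.3 CPM (28.7 to 40.6) in Ad-mIFNB (2.30). Ethe1, a mitochondrial sulfur dioxygenase, was at 43.6 against 7.17 CPM (2.00), the nonclassical MHC gene H2-M2 at 88.4 against 15.1 CPM (2.22), and Thbs1, a matrix glycoprotein, at 48.7 against 4.35 CPM (2.52), found in 6 Ad-COMBO cells. The olfactory receptor gene Olfr655 was at 79.4 CPM in 5 Ad-COMBO cells and had no UMI in Ad-mIFNB, where 3 UMIs are the limit used here, so it was at least 103-fold higher, and 54.2% of its UMIs lay in 1 cell. Spp1 (3.83) and Mmp13 (2.67) rested on 1 Ad-COMBO cell with 99.3% and 94.8% of the UMIs and turned to -2.19 and -0.26 without the top cells.

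Costimulatory genes had the highest list median of these cells. Of 13 described, 8 were higher and 2 lower (median 0.90). Cd86 was at 586 CPM (551 to 623) in Ad-COMBO and 277 CPM (261 to 294) in Ad-mIFNB (1.07), and Cd80, which like it binds CD28 on T cells, at 263 CPM (239.7 to 288) in Ad-COMBO and 124 CPM (113 to 135) in Ad-mIFNB (1.06). Cd70 was at 119.7 CPM (104 to 137) in Ad-COMBO and 27.7 CPM (22.7 to 33.4) in Ad-mIFNB (1.93), with 11.7 CPM in Ad-Null and 50.8 in Ad-MEM40. Tnfrsf9 was at 154 against 51.5 CPM (1.49), its ligand Tnfsf9 at 285 against 151 CPM (0.90), Tnfrsf4 at a log2 ratio of 1.07, the CD226 ligand Pvr at a log2 ratio of 0.87 and the self-ligand Slamf1 at 39.2 against 2.56 CPM (2.55). The lower members were Tnfsf15 (TL1A), at 16.2 against 44.3 CPM (-1.22), and Icosl, at a log2 ratio of -0.60 and above the threshold of a lower call without cells in more than 1 gate (-0.45).

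Shares of cells with a UMI were taken after thinning each cell to 2000 UMIs, which left 118 Ad-COMBO and 218 Ad-mIFNB cells of the gate. The genes given here were among those called higher in the summed UMIs of this gate. Shares of Tnfsf9, Pvr, Slamf1, Il27, Il15, Il2ra, Il6 and Il1b, called higher too, are not given. Nor are those of the lower or uncalled costimulatory and cytokine genes. Overlaps of intervals thus describe the genes given only and are no tally of the lists. The intervals are over cells of 1 library a side. Cd86 was detected in 62.7% (53.3 to 71.4) of cells in Ad-COMBO and 36.2% (29.9 to 43.0) in Ad-mIFNB. Before thinning these shares were 84.9% and 75.3%. In C1q cells the thinned shares of Cd86 were 29.6% (21.2 to 39.2) and 27.2% (22.3 to 32.4), with overlapping intervals. Tnfrsf9 was detected in 23.7% (16.4 to 32.4) against 6.88% (3.90 to 11.1), and in 0.926% and 3.83% of C1q cells, given as the background. Il15ra was detected in 32.2% (23.9 to 41.4) against 14.7% (10.3 to 20.1) and Tnf in 51.7% (42.3 to 60.99) against 28.9% (22.98 to 35.4). In C1q cells Il15ra was in 6.48% and 3.19%, and Tnf in 33.3% and 26.5%, about its share in the Ccr7 gate of Ad-mIFNB. For Cd80 the C1q shares were 2.78% and 6.39%, for Ebi3 4.63% and 7.99%, for Tnfrsf4 0.926% and 1.92%, and for Cd70 0 of 108 cells, which allows up to 2.78%, and 0.319%. Among the genes given, intervals in the Ccr7 gate did not overlap for Cd86, Tnfrsf9, Il15ra and Tnf. They overlapped for 3 others, Cd80 at 44.1% (34.9 to 53.5) against 29.4% (23.4 to 35.9), Cd70 at 11.9% (6.64 to 19.1) against 5.96% (3.21 to 9.98) and Ebi3 at 28.8% (20.8 to 37.9) against 17.0% (12.2 to 22.6). Tnfrsf4, whose summed level was higher, was detected in 16.9% and 16.5% of cells, with 2.25 and 1.89 UMIs per positive cell, so after thinning its libraries were closer than in the summed UMIs.

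Of 17 cytokine genes described in Ccr7+ Fscn1+ cells, 8 were higher and 3 lower (median 0.52). Both subunits of IL-27 were higher, Il27 at 110.2 CPM (95.3 to 127) in Ad-COMBO and 25.3 CPM (20.6 to 30.9) in Ad-mIFNB (1.92) and Ebi3 at 265 CPM (242 to 290.1) in Ad-COMBO and 82.4 CPM (73.7 to 92.0) in Ad-mIFNB (1.63). Il12b, high in these cells, was at 797 against 555 CPM, a ratio of 0.52 that was not called. Il15ra was at 161 against 53.3 CPM (1.51), Il15 at a log2 ratio of 0.82, Tnf at 466 against 216 CPM (1.09), Il6 at a log2 ratio of 0.72 and Il2ra (CD25) at 237 against 105 CPM (1.14). Il1b (0.74), whose product is an inflammatory cytokine, had a log2 ratio of 0.18 without its top cells. The lymphotoxin genes Ltb and Lta, which act on lymphoid stroma, were lower at 19.6 against 85.8 CPM (-1.88) and 16.8 against 49.9 CPM (-1.33), as was the decoy IL-1 receptor Il1r2 (-0.92). Among chemokines, Ccl17, a ligand of CCR4, was lower at 91.2 against 246 CPM (-1.39), while Ccl22, which shares CCR4, had a log2 ratio of 0.67 (0.57 without its top cells and 1.26 without cells in more than 1 gate). Ccl2 (1.18) and Ccl6 (0.91) turned to -0.71 and -2.80 without cells in more than 1 gate, and Ccl8 (1.10), Ccl9 (0.82) and Cxcl2 (0.93) to 0.05, 0.19 and 0.03. Of 15 inhibitory molecules 6 were higher and 2 lower, with Cd274 at 838 against 429 CPM (0.96), Nectin2 at a log2 ratio of 1.03 and Cd200 at a log2 ratio of 0.79.

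Pathway genes of CD40 and NF-kB were higher in 6 of 24 cases and lower in none (median 0.38), with Tnfaip3 at 537 CPM (504 to 572) in Ad-COMBO and 215 CPM (200.3 to 229.6) in Ad-mIFNB (1.30), Traf5 at a log2 ratio of 0.79, Traf3 at a log2 ratio of 0.76, Tnip1 at a log2 ratio of 0.73, Cd40 at 384 against 240.2 CPM (0.67) and Nfkbia at a log2 ratio of 0.67. Of 15 survival and adhesion targets 6 were higher and none lower, with Ptgs2 at a log2 ratio of 1.27 and Icam1 at a log2 ratio of 1.05. Egr1 was at 703 against 197 CPM (1.81), beside 3 of 18 stress genes higher. Of 22 maturation genes 9 were higher and none lower (median 0.47), and Apol7c (1.49) turned to -1.12 without its top cells. With a minimum of 2 UMIs per gate gene, Cd40 had a log2 ratio of 0.51, and without cells in more than 1 gate Nfkbia had a log2 ratio of 0.57, both below the threshold.

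MHC class II genes were lower in Ccr7+ Fscn1+ cells of Ad-COMBO, 10 of 13 at least 1.5-fold and none higher (median -0.68). H2-Ab1 was at 2359.8 CPM (2289 to 2432) in Ad-COMBO and 4155 CPM (4092 to 4219.6) in Ad-mIFNB (-0.81), H2-Aa at 2914 against 4674 CPM (-0.68), the peptide loading subunit H2-DMb2 at 44.7 against 142 CPM (-1.56), the invariant chain Cd74 at a log2 ratio of -0.59 and the transactivator Ciita at 49.8 against 99.6 CPM (-0.93). MHC class I genes were at a median of 0.21, with Nlrc5, their transactivator, at a log2 ratio of 0.59. The glycolysis genes Eno1 (-1.06) and Pgk1 (-0.84) were lower, 5 of 15 hypoxia and glycolysis genes in all, whereas Ndrg1 was higher at 333 against 123 CPM (1.40). Of 16 cell cycle genes 10 were lower (median -0.78, or -0.26 without cells in more than 1 gate). The histone genes Hist1h2ae (-3.29), Hist1h1b (-2.23), Hist1h2ap (-2.20) and Hist1h1e (-2.09), some of which have near copies that may share reads, were among the 10 lowest. The others were Hspb1 (-3.33, with 78.4% of Ad-mIFNB UMIs in 1 cell and -1.55 without the top cells), Mgl2 (-2.79), Dct (-2.38, -0.61 without the top cells), Ltb, Fh1 (-1.83) and Cd72, a receptor for semaphorin 4D, at 69.9 against 254 CPM (-1.79).

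The 2 libraries also differed in which other markers the Ccr7+ Fscn1+ cells carried. Of 11 cDC2 markers 8 were lower (median -1.25, 1089.6 against 2303 CPM summed), and of 11 cDC1 markers Itgae (0.97) and Xcr1 (0.71) were higher (median 0.34). Macrophage markers summed to 2995 against 3589 CPM and melanoma markers to 133 against 329. Without the 25 and 64 cells in more than 1 gate, ratios of Cd86, Cd80, Cd70, Tnfrsf9, Il27, Ebi3, Il15ra, Tnf and Tnfaip3 were 1.17, 0.96, 1.69, 1.33, 1.88, 1.70, 1.45, 1.37 and 1.38, all still called, and that of H2-Ab1 was -1.10. The part of cDC2 origin in the MHC class II values was not tested.

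**Figure D4:**
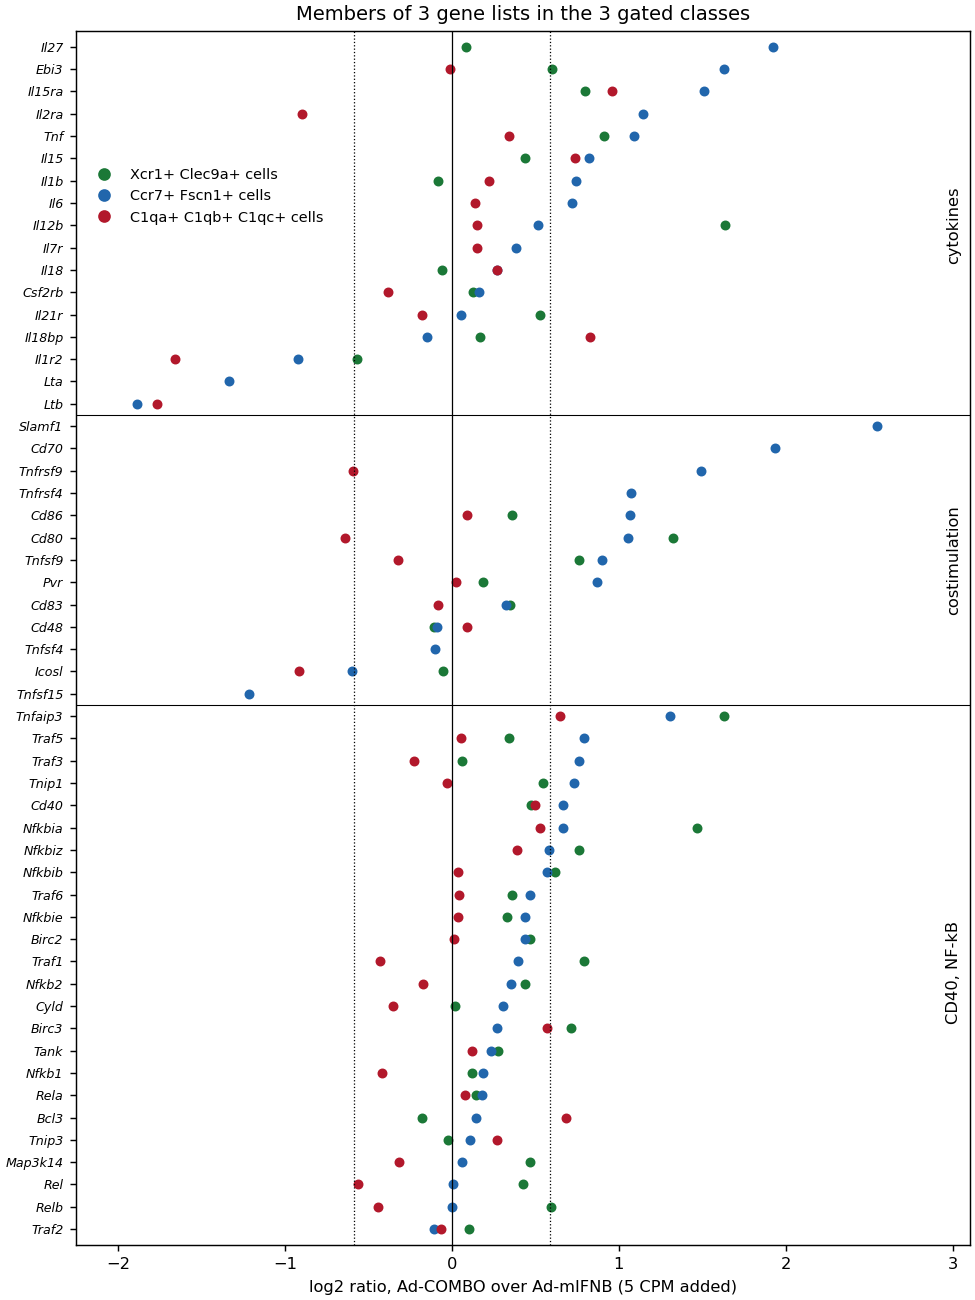
Log2 ratio, Ad-COMBO over Ad-mIFNB with 5 CPM added (horizontal axis), of each described member of the cytokine, costimulation and CD40 and NF-kB lists (rows), with 1 point per gated class; dotted lines mark 1.5-fold. In Ccr7+ Fscn1+ cells (blue) Il27 (1.92), Slamf1 (2.55) and Cd70 (1.93) stand farthest to the right, in Xcr1+ Clec9a+ cells (green) Tnfaip3 (1.63) and Il12b (1.64), while Ltb is lower in the Ccr7 (-1.88) and C1q (-1.76) classes.

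In C1qa+ C1qb+ C1qc+ cells, 12 of 22 interferon gamma associated genes, Acod1 among them, were higher in Ad-COMBO, and 7 of 13 MHC class II genes were lower. Of 7599 genes described, 224 (2.95%) were higher and 174 (2.29%) lower. Acod1 was at 164 CPM (149 to 181) in Ad-COMBO and 27.8 CPM (24.2 to 31.7) in Ad-mIFNB (2.37) and at 27.2 and 74.3 CPM in Ad-Null and Ad-MEM40. The complement gene C3 was at 58.9 against 10.4 CPM (2.05), Cxcl1 at 304 CPM (283 to 327) in Ad-COMBO and 73.7 CPM (67.8 to 79.9) in Ad-mIFNB (1.98) and Ccl8 at 1230.3 CPM (1187 to 1274) in Ad-COMBO and 370.2 CPM (357 to 384) in Ad-mIFNB (1.72). Il10, an inhibitory cytokine, was at 64.5 CPM (54.9 to 75.2) in Ad-COMBO and 15.9 CPM (13.3 to 19.0) in Ad-mIFNB (1.73), in 26 of 114 and 51 of 317 cells, and Il1rn at 321 against 189 CPM (0.75, 0.55 without its top cells). The adhesion molecule Vcam1 was at 84.8 against 25.2 CPM (1.57), Pdpn (podoplanin) at 98.3 against 35.0 CPM (1.37), Ms4a8a at a log2 ratio of 1.49, Mmp13 at a log2 ratio of 1.47 and the ubiquitin ligase Mid1 at a log2 ratio of 1.36.

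Interferon gamma associated genes were higher in 12 of 22 cases and lower in none (median 0.62). Nos2, the inducible nitric oxide synthase, was at 37.0 CPM (29.9 to 45.3) in Ad-COMBO and 8.54 CPM (6.62 to 10.8) in Ad-mIFNB (1.63), Gbp5 at 125 against 69.6 CPM (0.81), Gbp4 at a log2 ratio of 0.83, Gbp2 at 281 against 162 CPM (0.77) and Irf1 at a log2 ratio of 0.65. The call on Irf1 ended without its top cells (0.58), and Serpina3g (0.85) turned to -0.19 without cells in more than 1 gate. Of 38 type I interferon genes 2 were higher and none lower (median 0.14). CD40 and NF-kB pathway genes were near level, 2 of 24 higher (Bcl3, 0.69, and Tnfaip3, 264 against 167 CPM, 0.64) and none lower (median 0.04), and Nfkbia had a log2 ratio of 0.53. Of 8 costimulatory genes none was higher and 3 were lower, Icosl (-0.91), Cd80 (19.9 against 33.8 CPM, -0.64) and Tnfrsf9 (-0.59). By the mean of per-cell CPM Cd80 had a log2 ratio of -0.03, and with at least 2 UMIs of each gate gene Tnfrsf9 had a log2 ratio of -0.41, neither called. The difference between classes in these lists was not tested.

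Of 18 chemokines described in C1q cells 4 were higher and 4 lower. The higher ones were Cxcl1, Ccl8, Ccl7 at 1441 against 741 CPM (0.95) and Ccl12 at 892 against 451 CPM (0.98), while Ccl2, the main ligand of CCR2, had a log2 ratio of 0.53 and was not called. The lower ones were Ccl17 at 3.18 CPM (1.37 to 6.27) in Ad-COMBO and 74.2 CPM (68.3 to 80.4) in Ad-mIFNB (-3.27), Ccl24 (-1.76), Ccl22 at 39.8 against 138 CPM (-1.67) and Ccl5 (-0.62), which turned to 0.48 without cells in more than 1 gate. Of 20 phagocytosis and lysosome genes 5 were higher and none lower (median 0.39), the scavenger receptor Msr1 at 415 against 204 CPM (1.01), the receptor for dying cells Mertk at 69.6 against 30.7 CPM (1.06), and the cathepsins Ctsl (2157 against 1103 CPM, 0.96), Ctsd (0.66) and Ctsb (0.65), of which Ctsd and Ctsb had log2 ratios of 0.54 and 0.57 without their top cells. MHC class II genes were lower in 7 of 13 cases and higher in none (median -0.59), with H2-Aa at 2014 against 3181 CPM (-0.66) and H2-DMb2 at 23.5 against 80.0 CPM (-1.58).

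The lowest genes of C1q cells after Ccl17 were Klrd1 at 3.98 against 46.5 CPM (-2.52), Dct (-2.29), Pmel (-2.15), the monocyte antigen Ly6c2 at 41.4 CPM (33.8 to 50.1) in Ad-COMBO and 201 CPM (191 to 211) in Ad-mIFNB (-2.15), Tyrp1 (-1.78), Bex6 (-1.77), Cd300e (-1.73), Ccl22 and Il1r2 at 22.7 against 82.4 CPM (-1.66). By the mean of per-cell CPM, Dct (-0.53) and Tyrp1 (-0.48) were not called, and without its top cells Ccl22 had a log2 ratio of -2.88. Retnla, a gene of alternatively activated macrophages, was at 3.58 against 29.3 CPM (-2.00). Macrophage markers other than the gate genes summed to 5825 against 3883 CPM (3 of 9 higher, median 0.42), cDC2 markers to 1399.8 against 2103 (5 of 10 lower, median -0.68, -0.15 without cells in more than 1 gate) and melanoma markers to 329 against 686 (5 of 7 lower). Their part in the values of this class was not tested.

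Cells in no gate, 329 and 1093, had a median of 7119 and 11765 UMIs and were not a cell type. Of 7369 genes described in them, 372 (5.05%) were higher and 112 (1.52%) lower. Cells that lack a UMI of Ccr7 or of Fscn1 miss the Ccr7 gate, which depends on depth. The part of depth in the marker values that follow was not tested. Mature DC markers, Ccr7 and Fscn1 among them, were higher in 8 of 8 cases (median 1.24), with Ccl22 at 93.1 against 14.5 CPM (2.33) and Cacnb3 at 66.4 against 10.5 CPM (2.20), and pDC markers in 7 of 11 (median 0.68), with Ly6d at 178 against 63.3 CPM (1.42) and Ccr9 at 119 against 57.6 CPM (0.99). Melanoma markers, lower over all kept cells and in the Ccr7 and C1q classes, went the other way outside the gates. Of 8 described, 4 were higher and none lower (median 0.41, 916 against 775 CPM). Over all kept cells, the top Ad-COMBO cell held 619 of 751 UMIs of Dct and 510 of 596 UMIs of Tyrp1, each taken by itself. In the Ccr7 and C1q gates the top Ad-COMBO cell of Dct held 23 UMIs, so that top cell was in neither gate. The part of melanoma markers, or of their top cells, in the no-gate values was not tested. Acod1 was at 30.9 CPM (25.2 to 37.6) in Ad-COMBO and 3.02 CPM (2.17 to 4.09) in Ad-mIFNB (2.16). Cd209a was at 40.0 against 107 CPM (-1.31) and Ccr2 at 73.1 CPM (64.2 to 82.9) in Ad-COMBO and 219 CPM (211 to 227) in Ad-mIFNB (-1.52), so both were lower outside the gates as well.

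The same CD40 ligand virus without interferon beta gave another reading, Ad-MEM40 over Ad-Null, which shares no library with Ad-COMBO over Ad-mIFNB. Of the 260 genes higher in Ad-COMBO over all kept cells, 29 also passed 1.5-fold upward in Ad-MEM40 and 3 were lower, and of the 64 lower genes 3 were lower there and 3 higher. Of all 7495 genes, 92 (1.23%) were at least 1.5-fold higher and 48 (0.64%) lower in Ad-MEM40 over Ad-Null. Acod1 (log2 ratios 2.11 with and 1.56 without interferon beta), Procr (2.11 and 1.07), Ccl8 (1.58 and 1.07), Cxcl1 (1.67 and 0.79) and Cd70 (1.60 and 0.92) were higher in both. Over all kept cells, Sema7a (1.77 and 0.45), Il15ra (1.41 and 0.25), Ly75 (1.36 and 0.12), Tnfrsf9 (1.31 and 0.28) and Tmem39a (1.27 and 0.02) passed 1.5-fold with interferon beta only. Within Ccr7+ Fscn1+ cells, Sema7a passed it in both readings (1.97 and 0.62). Without replicates, the difference between these readings was not tested.

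By lists, the maturation median was 0.70 with interferon beta and 0.22 without it, the costimulatory median 0.56 and -0.01, and the CD40 and NF-kB median 0.37 and 0.15. The interferon gamma list was at 0.57 and 0.41. Macrophage markers had the larger median without interferon beta, at 0.30 with and 0.68 without interferon beta. Within Ccr7+ Fscn1+ cells, Cd70 (1.93 and 1.74), Procr (2.94 and 1.60), Dll4 (2.69 and 1.64), Cxcl1 (2.30 and 1.34) and Ebi3 (1.63 and 0.91) were higher in both readings, while Cd86 (1.07 and 0.10), Cd80 (1.06 and -0.01), Tnfrsf9 (1.49 and -0.14) and Il15ra (1.51 and 0.16) were level or below 1.5-fold without interferon beta. In Xcr1+ Clec9a+ cells Tnfaip3 (1.63 and 0.94), Nfkbia (1.47 and 0.72) and Il12b (1.64 and 1.09) were higher in both. Of all genes described, 132 of 7253 (1.82%) in the Ccr7 class and 59 of 7107 (0.83%) in the Xcr1 class were at least 1.5-fold higher without interferon beta.

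**Figure D5:**
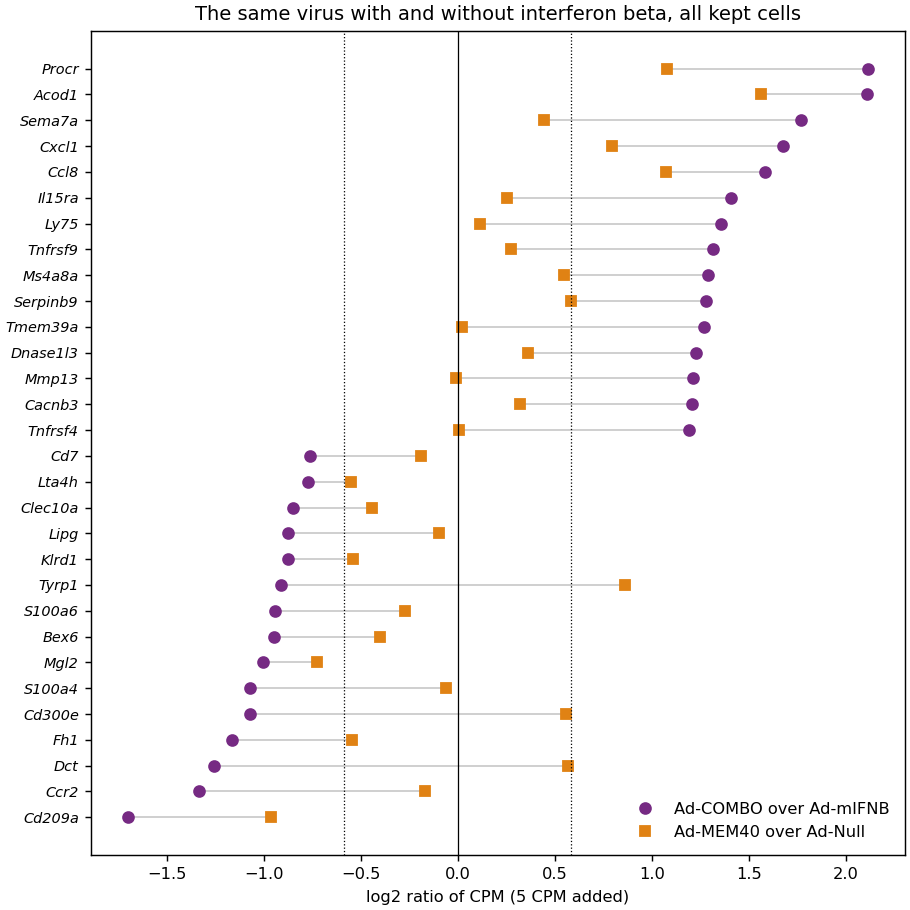
Log2 ratio of CPM with 5 CPM added (horizontal axis) of the 15 highest and 15 lowest genes of all kept cells (rows) for Ad-COMBO over Ad-mIFNB (purple circles, which chose the genes) and Ad-MEM40 over Ad-Null (orange squares); dotted lines mark 1.5-fold. Acod1 (2.11 and 1.56) and Cd209a (-1.70 and -0.96) lie past 1.5-fold in both, whereas Sema7a (1.77 and 0.45) and S100a4 (-1.07 and -0.06) do so in the interferon beta libraries only.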

How the data were processed

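Single-cell 3′ RNA libraries of CD11c+ MHC-II+ cells from 4 groups of 3 pooled tumors were used. The values are raw UMI counts per gene and barcode, deposited by the authors as filtered matrices of 32285 genes, whose header names Cell Ranger 6.0.0, whereas the submitters' processing notes name Cell Ranger 3.0, Seurat 4.0 and mm10. No cell annotation was used. Barcodes with at least 500 genes and at most 10% mitochondrial UMIs were kept, which left out 283 in Ad-COMBO and 266 in Ad-mIFNB. UMIs were summed per library, and per gate, as CPM, and compared as log2 ratios with 5 CPM added (Python 3.11.15, numpy 2.4.6, pandas 2.3.3, scipy 1.17.1). CPM intervals are exact Poisson and share intervals exact binomial (Clopper-Pearson), both at 95% and for counting error only. For a sum of 0, the limit is 3 UMIs. Kept cells held 9748429 UMIs in Ad-COMBO and 28541575 in Ad-mIFNB.

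A gate needs at least 1 UMI of each of its genes, gate genes were left out of that class's values, and a barcode may be in more than 1 gate. Genes were described at 50 UMIs or more over both libraries and a mean of 10 CPM or more. Named genes were the 15 highest and 15 lowest among those described with a mean of 25 CPM or more (10 of each in a class), plus members of the 31 lists (442 of 446 genes matched). Mitochondrial, ribosomal protein, haemoglobin, immunoglobulin, T cell receptor, Xist, Y-linked, Gm and Rik genes and the gate genes were not ranked. The members, rule and lists were chosen with earlier results of these data known, and list counts are descriptions. Scrublet (scanpy 1.11.5) marked 3 of 671 and 3 of 1810 cells, too few for doublets to be taken as removed, so cells in more than 1 gate were also left out as an alternative. The 15 alternatives planned cover cell filters, doublets, shared barcodes, pseudocount, scaling, thinning, thresholds and gates, and leaving out each gene's top cell was chosen after seeing the data. The scripts were tested on simulated data. Gene positions are from GENCODE and promoters from RefSeq (GRCm38.p6, 32851 windows), matched by symbol, and 28 of the 34 genes highest and 24 of the 34 lowest in any population had a window. Neither a test nor a p-value was computed, since each virus has 1 library.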

Additional observations from a re-analysis of the deposited data

Results flagged for a closer look

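Among the genes named by the rule on highest and lowest ratios, Tyrp1 and Ccl22 went in opposite directions with and without interferon beta, each past 1.5-fold. Tyrp1, a melanin synthesis gene of the tumor cells, had a log2 ratio of -0.91 for Ad-COMBO over Ad-mIFNB in all kept cells and 0.86 for Ad-MEM40 over Ad-Null. In C1q cells Tyrp1 was at -1.78 and 0.78. Ccl22, a CCR4 ligand of mature dendritic cells, was at -1.67 and 0.61 in C1q cells. Each side of both readings has 1 library, and the difference was not tested.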

How the results depend on the processing

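Of the recomputed values, 11819 lay within the 95% counting interval (for list medians that of the middle member, for counts of genes 1.5 times) of the value given, 2496 lay outside it and 40 called values changed sign. This total pools alternatives that changed little with others that changed much. In all kept cells, scaling by the median of gene ratios left 321 gene values within the interval and none outside. The mean of per-cell CPM put 206 outside and 115 inside, and thinning 227 outside and 92 inside. The gate shares of Ad-mIFNB put 150 outside and 171 inside, with 12 list medians outside and 12 inside. All kept cells gave 260 genes higher and 64 lower, with 103 lower at a pseudocount of 1 CPM, 119 by the mean of per-cell CPM, 103 without the top cell of each gene (an alternative chosen after seeing the data) and 39 at the gate shares of Ad-mIFNB. Cells thinned to 1000 UMIs gave 694 and 562, and a 2-fold threshold 49 and 9. In Xcr1+ Clec9a+ cells (212 and 176) the pseudocount gave 282 lower, thinning 1444 and 1596, at least 10 UMIs with no CPM minimum 366 and 287, and the 2-fold threshold 41 and 22. In Ccr7+ Fscn1+ cells (454 and 517) per-cell CPM gave 756 and 779, thinning 1571 and 1803, at least 10 UMIs 913 lower, the 2-fold threshold 130 and 109, and leaving out the top cell 823 lower. In C1q cells (224 and 174) these were 428 and 306, 1605 and 1808, 366 lower, 39 and 52, and 141 and 274. Higher genes were 80.2% of the calls in all kept cells, 55.3% after thinning and 68.9% without top cells; without top cells they were 41.5%, 29.2% and 34.0% in the Xcr1, Ccr7 and C1q classes, against 54.6%, 46.8% and 56.3%. At least 2 UMIs of each gate gene gave Xcr1+ Clec9a+ shares of 16.2% and 10.1% (Ad-COMBO and Ad-mIFNB) and Ccr7+ Fscn1+ shares of 14.5% and 10.1%, thinning gave 1.95% and 0.953%, 9.32% and 4.88%, and C1q shares of 9.92% and 9.30%, and without cells in more than 1 gate the Ad-mIFNB shares of the Ccr7 and C1q gates were 9.56% and 14.3%. Log2 ratios changed sign after thinning for Mertk (-0.071) and Gbp2b (-0.37) in all kept cells, for Ccna2 (0.41), Birc3 (-0.054), Arl5c (-0.048) and Ebi3 (-0.40) in the Xcr1 class, and for Gbp2b (-1.74), Tnfrsf9 (0.84), Gbp8 (-0.017), Bcl3 (-0.086) and Tgtp1 (-0.086) in the C1q class. In the Ccr7 class thinning did so for Mki67 (1.40), Vsir (0.56), Cdk1 (0.44), Icosl (0.26), Ccl6 (-0.90), Top2a (0.48), Hist1h2ap (0.20), Ctsl (-0.66), Socs1 (-0.23) and H2-Ob (0.42), with Cenpf at 0.00. Per-cell CPM did so in that class for Mki67 (0.57), Ccl8 (-0.026), Ccl6 (-0.48) and Ctsl (-0.74), leaving out the top cell for Spp1 (-2.19), Mmp13 (-0.26), Ccl6 (-0.79), Ctsl (-0.55) and Apol7c (-1.12), at least 2 UMIs of each gate gene for Dct (0.91) and the melanoma marker median (1.65), and leaving out cells in more than 1 gate for Spp1 (-2.93), Mki67 (0.19), Ccl2 (-0.71), Ccl6 (-2.80) and Ctsl (-0.51). In the C1q class the last of these did so for Ccl5 (0.48) and Serpina3g (-0.19). Fewer UMIs per gene follow from thinning. Leaving out the top cell took 1 cell per gene from each library and kept the totals, which weighs more on the library with fewer cells, Ad-COMBO. The median log2 ratio of all genes was then -0.053, -0.123 and -0.060 in the Xcr1, Ccr7 and C1q classes, against -0.021, -0.045 and -0.0002. Calls near the threshold that ended without top cells carry this shift. The cause of the other changes was not tested. Ad-COMBO has 671 cells, so genes at a few UMIs per class are limited by depth. No paired analysis was possible because each virus has 1 library and the labels give no replicate numbers.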
